A study of Bos taurus with 18 samples.

Results

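SLURP1 (ENSBTAG00000016209), DSG1 (ENSBTAG00000013831), PADI1 (ENSBTAG00000002138) and CRISP3 (ENSBTAG00000012918) were 4 of the 24616 genes measured by RNA sequencing in the rumen epithelium of 18 dairy cows. The 4 genes were chosen by name, and were selected on these samples because their mean level was higher on the alfalfa diet, so their comparisons of alfalfa with the straw diets are given as a description with no test. All 4 were among the 13284 genes that passed the filter on low values, which asked that 3 or more of the 6 cows on a diet have a CPM (the reads of a gene scaled to the total of its library) above 1. The cows were multiparous, mid-lactation Holsteins whose ages are not given in the sources used here, and 6 cows were fed each diet. The AH diet held alfalfa hay with Chinese wild rye hay, the CS diet corn stover and the RS diet rice straw, and all 3 diets shared the same concentrate mixture and corn silage. There was no group without corn silage or concentrate. RNA came from papillae of the ventral sac of the rumen after slaughter, although the extraction text in the labels speaks of rectal tissue. Recovered depth was between 16099131 and 32252177 reads per cow, and each value below is the deposited CPM of 1 cow.

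The rumen is lined by a stratified squamous epithelium in which cells leave a basal layer, flatten, take up keratin and are shed into the lumen. In the upper layers of such an epithelium desmosomes tie the cells together, peptidylarginine deiminases modify keratins and other structural proteins, and small secreted proteins act on neighbouring cells. SLURP1 is a secreted protein of the LY6/uPAR family that acts through nicotinic acetylcholine receptors, and its loss in people causes a thickening of the skin of palms and soles. DSG1 is the desmosomal cadherin of the upper epidermis and the target of the antibodies in pemphigus foliaceus. PADI1 converts arginine to citrulline in proteins of the upper epidermal layers. CRISP3 is a cysteine-rich secretory protein of the CAP superfamily, known best from salivary gland, neutrophil granules and the male reproductive tract, so that it is a less usual member of a squamous group than the other 3.

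The epithelial label of the samples was checked against the genes that could be paired with a symbol. S100A8, a calgranulin of squamous epithelia and neutrophils, had a mean of 3239 CPM in AH, with 6814 for CS and 7581 for RS. SLC14A1, the urea transporter of the rumen wall, had a mean of 774 CPM in AH, with 573 for CS and 387 for RS. The deposited identifiers carry no symbols, and a pairing with a symbol was to hand for 73 genes, so that 7 of 260 symbols on the lists of related genes could be looked up. None of 7 neutrophil markers, 9 salivary and mucous gland markers, 8 leukocyte markers or 13 desmosome genes could be paired, and their part in the levels of CRISP3 and DSG1 was not tested. In bulk RNA, fewer cells of a type and less RNA per cell cannot be told apart.

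SLURP1, the secreted ligand, was the member with the most AH cows above all cows of the other diets. Its CPM in the 6 AH cows was 68.0, 32.2, 8.35, 14.6, 51.1 and 153, with a median of 41.6. The CS cows ran from 3.84 to 31.6 CPM with a median of 13.7, and the RS cows from 5.19 to 16.5 with a median of 8.47. AH 1, AH 2, AH 5 and AH 6 were above all 12 CS and RS cows, whereas AH 3 and AH 4 lay inside their range, so the groups overlapped. The mean was 54.6 ± 53.1 CPM (SD, n = 6) in AH, with 14.4 ± 9.91 for CS and 9.98 ± 5.16 for RS. The ratio of means was 3.80 for AH to CS and 5.47 for AH to RS. AH 6 alone held 46.8% of the summed AH CPM. Without AH 6 the log2 ratio of means was 1.28 in place of 1.93 against CS, and 1.80 in place of 2.45 against RS.

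DSG1, the desmosomal cadherin, was higher in the mean of AH through a pair of cows. Its CPM in the 6 AH cows was 14.7, 68.5, 7.60, 8.58, 6.46 and 101, with a median of 11.6. The CS cows ran from 4.35 to 19.6 CPM with a median of 11.3, and the RS cows from 3.67 to 30.4 with a median of 8.24. AH 2 and AH 6 were above all 12 cows of the other diets, and the other 4 AH cows lay within the range of the CS cows. The mean was 34.5 ± 40.5 CPM in AH, with 12.4 ± 6.11 for CS and 11.7 ± 10.00 for RS (SD, n = 6). The ratio of means was 2.79 for AH to CS and 2.95 for AH to RS. The medians of AH and CS were nearly level, with a log2 ratio of 0.035. AH 6 held 48.9% of the summed AH CPM, and without it the log2 ratio of means was 0.77 in place of 1.48 against CS and 0.85 in place of 1.56 against RS.

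PADI1, the deiminase, had the widest gap, as a ratio, between AH and RS medians. Its CPM in the 6 AH cows was 16.2, 2.09, 7.97, 12.6, 41.8 and 53.9, with a median of 14.4. The CS cows held a narrow range, from 3.04 to 10.1 CPM with a median of 8.18. In RS 4 cows were low, at 0.403, 0.827, 1.09 and 1.52 CPM, and the other two were at 10.3 and 12.9, with a median of 1.30. AH 1, AH 5 and AH 6 were above all 12 CS and RS cows, and AH 2 was below all 6 CS cows. All 6 AH cows were above the RS median. The mean was 22.4 ± 20.6 CPM in AH, with 7.16 ± 2.75 for CS and 4.50 ± 5.55 for RS (SD, n = 6), which gave a ratio of means of 3.13 for AH to CS and 4.99 for AH to RS. With single cows left out, the log2 ratio of means of AH to CS ran from 1.17 without AH 6 to 1.89 without AH 2, in place of 1.65. The log2 ratio of AH to RS ran from 1.84 without AH 6 to 2.99 without RS 4, in place of 2.32. The lowest PADI1 value rested on 11 reads in RS 1, with an exact Poisson 95% interval of 0.201 to 0.721 CPM that covers counting error only.

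CRISP3, the CAP protein, varied most from cow to cow. Its CPM in the 6 AH cows was 208, 1.61, 35.5, 39.2, 101 and 149.7, with a median of 70.0. The CS cows ran from 1.54 to 131 CPM with a median of 27.3, and the RS cows from 0.787 to 59.0 with a median of 25.1. AH 1 and AH 6 were above all 12 cows of the other diets, and AH 2 was among the 3 lowest of the 18 cows. The mean was 89.2 ± 78.8 CPM in AH, with 47.2 ± 49.6 for CS and 27.6 ± 22.8 for RS (SD, n = 6). The ratio of means was 1.89 for AH to CS, the only one of the 8 member ratios under 2, and 3.23 for AH to RS. Without CS 4, at 131 CPM, the log2 ratio of AH to CS was 1.55 in place of 0.92. Without AH 1, at 208 CPM, it was 0.47, and the log2 ratio of AH to RS was 1.24 in place of 1.69.

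**Figure D1:**
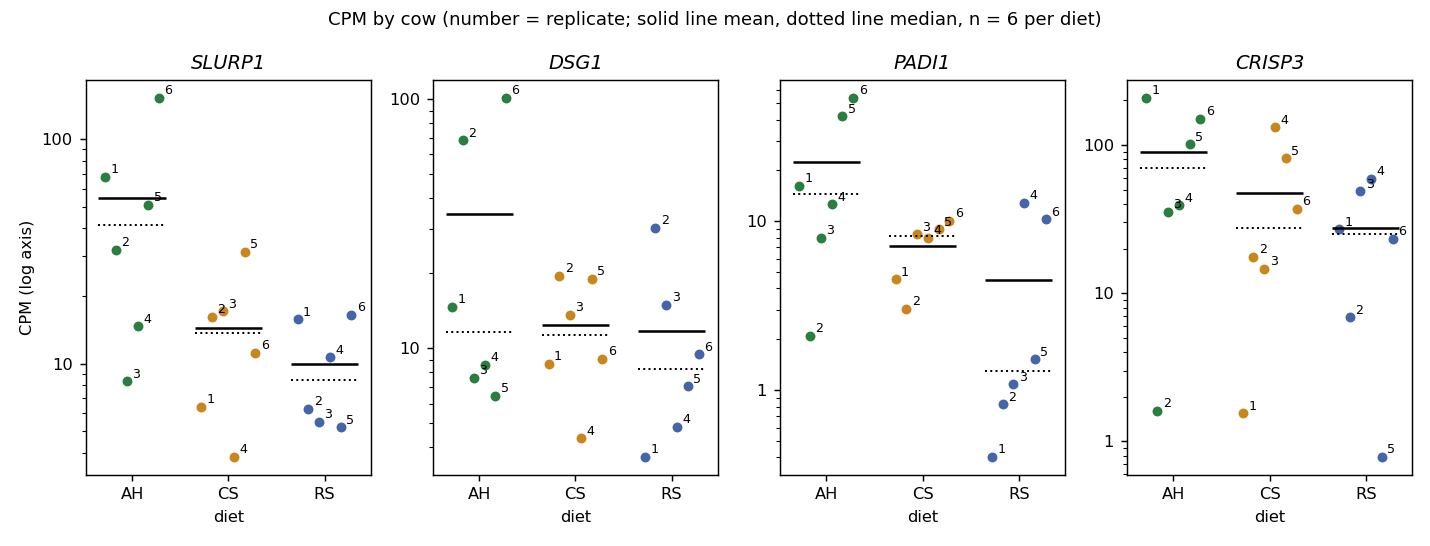
CPM (log axis) of the 4 genes in each of the 18 cows by diet, with the replicate number beside each point, a solid line at the mean and a dotted line at the median of 6 cows. In each panel the AH points overlap those of CS and RS, and AH 6 is the highest point for SLURP1, DSG1 and PADI1.

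The order of the means was AH, CS and RS for all 4 genes. Of the 4, 3 had a mean more than 2-fold higher in AH than in CS, a step that 0.941% of the 13284 genes made, and all 4 were more than 2-fold higher in AH than in RS, against 0.730% of the genes. The genes were picked for this direction, so nothing is read from these shares. By limma on log2(CPM + 0.5) with limits of a ratio of means over 2-fold and an adjusted p (Benjamini-Hochberg) under 0.05, 1 gene passed for AH against CS (0.00753%) and 1 for AH against RS (0.00753%). In both comparisons it was S100A9, the partner of S100A8, which was lower in AH at 445 CPM against 1710 in CS and 1781 in RS. The comparisons with AH share the same 6 AH cows.

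The comparison of RS with CS, both straw-type roughages, was not itself used to choose the genes and was tested. The CS and RS cows were the other side of that choice, so the test is not wholly free of it. No gene passed the same limits by limma (0%), with 171 genes at an unadjusted p under 0.05, and edgeR and DESeq2 on the recovered reads also called 0. All 4 genes had a lower fitted mean in RS, and none passed. The difference of RS from CS on the log2(CPM + 0.5) scale, which understates changes of low genes, was -0.37 ± 0.58 (SE) for SLURP1, -0.26 ± 0.63 for DSG1, -1.32 ± 0.71 for PADI1 and -0.61 ± 1.11 for CRISP3, each with an adjusted p of 1.00. The 2-sided exact permutation p over 6 against 6 cows was 0.494 for SLURP1, 0.623 for DSG1, 0.0974 for PADI1 and 0.613 for CRISP3, where 0.0022 is the smallest p that the 924 relabellings can give. None of the 4 was among the 38 genes (0.286%) with an unadjusted p under 0.05 and a lower mean in RS. With these errors a difference between RS and CS of the size seen for PADI1 could not be told from the spread between cows.

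The spread between cows of 1 diet, pooled over the diets, was wide for every member, but not in each diet. The pooled SD within diets of log2(CPM + 0.5) was 1.13 for SLURP1, 1.23 for DSG1, 1.38 for PADI1 and 2.21 for CRISP3, whereas the median over all genes tested was 0.49. These values stood at the percentiles 97.4, 98.4, 99.0 and 99.9 of the genes tested. In AH alone the SD was 1.50 for SLURP1, 1.68 for DSG1, 1.60 for PADI1 and 2.40 for CRISP3, at percentiles 99.1, 99.4, 99.3 and 99.9 of the genes in that diet. The genes were chosen for a higher mean in these AH cows. The pooled and AH percentiles are therefore not independent of that choice. CRISP3 had an SD of 2.14 in CS and 2.08 in RS. In CS, PADI1 had an SD of 0.62 (percentile 61.2) and DSG1 of 0.78 (76.0), and in RS, SLURP1 had an SD of 0.72 (85.1). From the lowest to the highest of the 18 cows the CPM differed 39.9-fold for SLURP1, 27.7-fold for DSG1, 134-fold for PADI1 and 265-fold for CRISP3. The fold of PADI1 rests on its lowest value, of 11 reads.

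**Figure D2:**
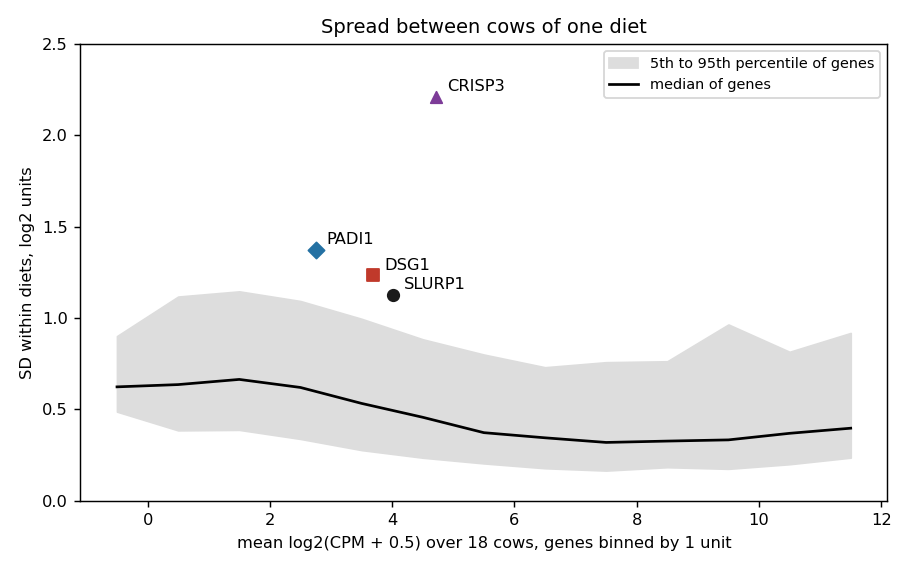
SD within diets (log2 units) against the mean log2(CPM + 0.5) over 18 cows, with the median (line) and the 5th to 95th percentile (grey) of the genes tested in bins of 1 log2 unit. All 4 genes lie above the grey band, and CRISP3 is the farthest from it at 2.21. The SD includes the AH cows by which the genes were chosen.

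The genes did not all vary together between cows. With each diet centred on its own mean, the Pearson r over 18 cows was highest for PADI1 with CRISP3 at 0.57 (Spearman's rho 0.53), and both genes lay on the same side of their diet mean in 15 of the 18 cows. SLURP1 correlated with DSG1 at 0.44 (rho 0.37), with PADI1 at 0.42 (rho 0.40) and with CRISP3 at 0.34 (rho 0.35). DSG1 had an r of -0.16 with PADI1 (rho -0.16) and of -0.22 with CRISP3 (rho -0.29), so that it was positive with SLURP1 alone. The mean r over the 6 pairs was 0.23, and without AH 6 it was 0.07. These are descriptions with no p, because the genes were chosen together and the points share libraries and depth.

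**Figure D3:**
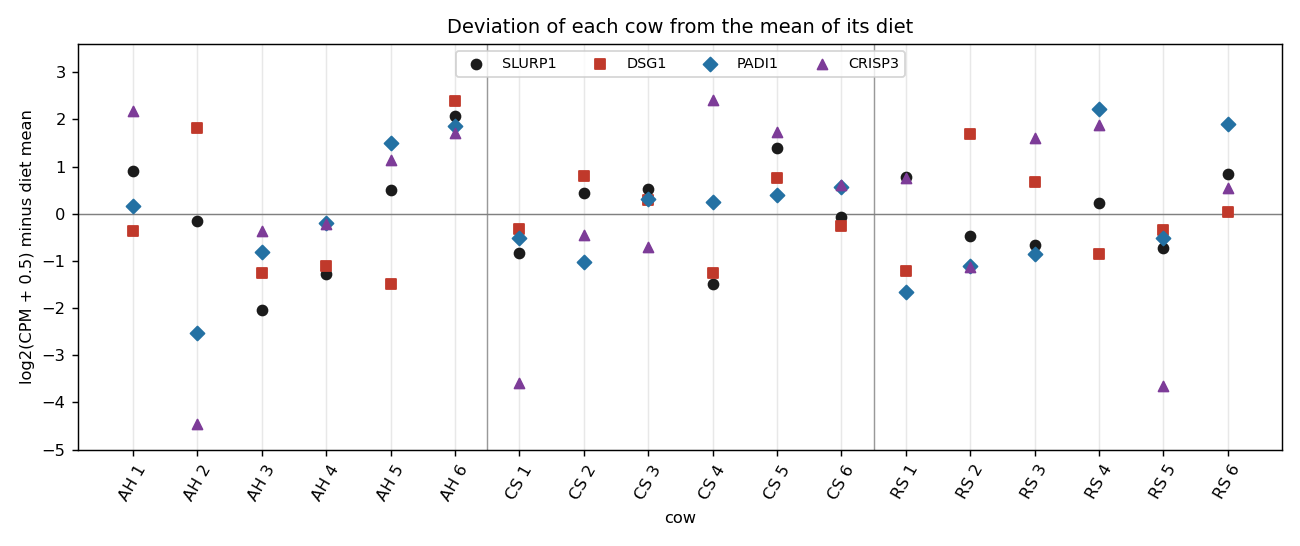
Deviation of log2(CPM + 0.5) from the mean of the diet (y axis, log2 units) for the 4 genes in each cow (x axis), with vertical grey lines between the diets. All 4 symbols stand high in AH 6, and in AH 2 DSG1 stands at 1.82 where CRISP3 stands at -4.45.

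Single cows differed in which members were high. AH 6 ranked first of 18 for SLURP1, DSG1 and PADI1 and second for CRISP3. AH 2 ranked second for DSG1 and 4 for SLURP1, but 14 for PADI1 and 16 for CRISP3. AH 5 had the opposite pattern, with rank 2 for PADI1, 3 for SLURP1 and 4 for CRISP3, but 15 for DSG1. AH 3 was above all cows of the other diets for 0 of the 4 genes, and so was AH 4. Outside AH, CS 5 was among the 8 highest cows for all 4 genes, and CS 4 ranked 3 for CRISP3 but 18 for SLURP1 and 17 for DSG1.

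The pairs differed between diets. PADI1 and CRISP3 had an r of 0.87 in AH, with 0.56 for CS and 0.33 for RS, over 6 cows each. SLURP1 and DSG1 had an r of 0.60 in AH and 0.93 in CS but -0.55 in RS. Their rho was 0.54, 0.83 and -0.31 in that order. Over 18 cows the r of SLURP1 and DSG1 ran from 0.25 to 0.52 with single cows left out. It was 0.13 without the 2 cows farthest from the SLURP1 median. Without the same 2 cows SLURP1 with PADI1 was at 0.26. PADI1 with CRISP3 was at 0.37 without the 2 cows farthest from the PADI1 median.

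Against the background of all genes, most of these r values were not extreme. The median r of SLURP1 with the other genes tested was 0.16, of DSG1 -0.01, of PADI1 0.12 and of CRISP3 0.11. CRISP3 stood at percentile 96.8 among the genes ranked by r with PADI1, and PADI1 at 90.1 among those ranked by r with CRISP3. SLURP1 stood at percentile 98.4 for DSG1, but DSG1 at 80.3 for SLURP1. CRISP3 stood at 13.1 for DSG1. The members were chosen together on these cows, so the percentiles are a description and not a test.

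**Figure D4:**
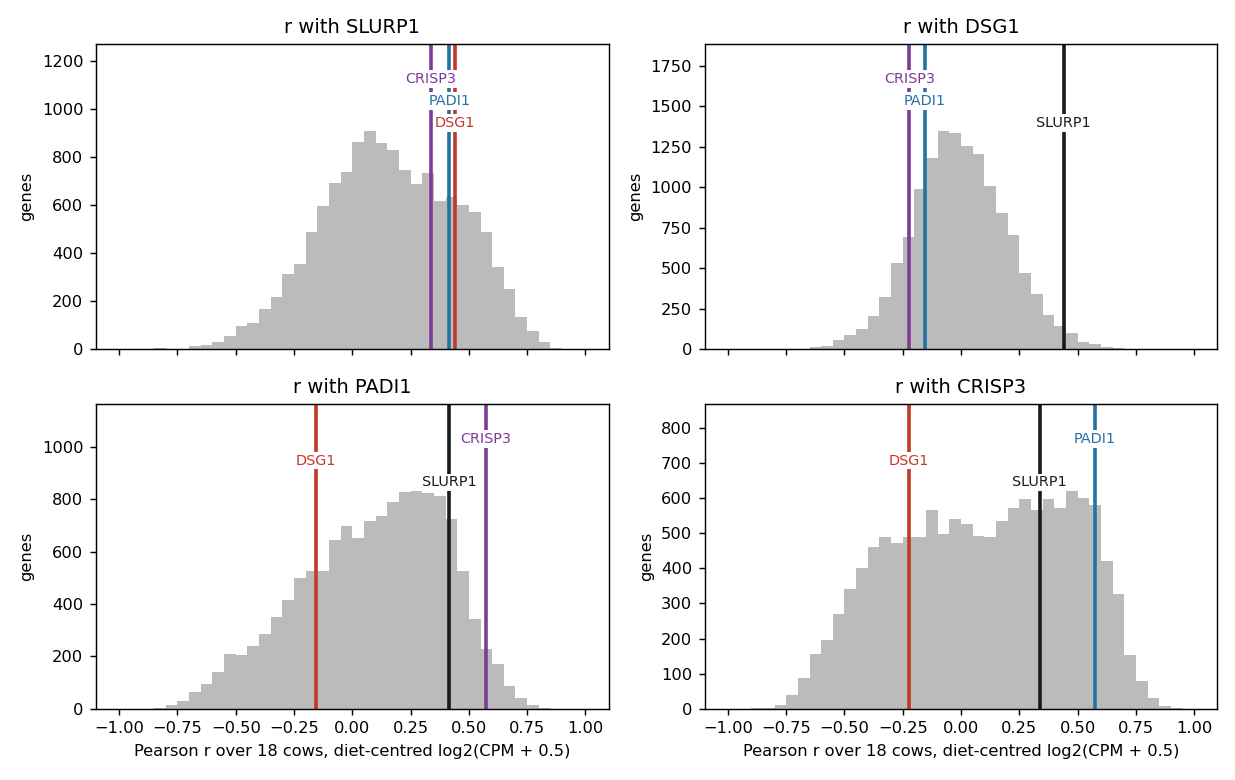
Number of genes (y axis) by Pearson r with each of the 4 genes over 18 cows (x axis, diet-centred log2(CPM + 0.5), bins of 0.05), with vertical lines at the other 3 members. CRISP3 lies in the right tail for PADI1, and PADI1 and CRISP3 lie left of the centre for DSG1.

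Library measures moved with some members. Over the 18 diet-centred cows, SLURP1 had an r of -0.54 (rho -0.56) with the share of CPM in the 10 most abundant genes and of -0.45 (rho -0.27) with log2 depth. CRISP3 had an r of 0.59 (rho 0.48) with the number of genes above 0 and 0.42 (rho 0.37) with log2 depth. For DSG1 and PADI1 the r with these 3 measures lay between -0.29 and 0.30. Their part in the pairs above was not tested.

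Genes with a like pattern could be named only among the 73 paired identifiers, which the study had itself picked from these samples. CRISP3 was most like TPRG1, a p63-regulated gene, with an r of 0.86 that ranked 5 among all genes tested. It was followed by VNN2, a pantetheinase (0.84), ARG1, the arginase of the urea cycle (0.83), AHSG, the plasma protein fetuin-A (0.70), and PI3, the protease inhibitor elafin (0.67). These ranked 19, 21, 258 and 435 among all genes, in that order. Among the paired genes, PADI1 was most like VNN2 (0.67), AHSG (0.65), TPRG1 (0.63), the mitochondrial gene MT-ATP8 (0.62) and ANKRD24 (0.58). Their ranks among all genes ran from 105 to 394. The CRISP3 and PADI1 lists thus had TPRG1, VNN2 and AHSG in common.

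SLURP1 was most like LPO, the lactoperoxidase of secretions, with an r of 0.76 that ranked 93 among all genes. IGFBP3, a binding protein of insulin-like growth factors (0.63), the protease gene PRSS53 (0.61), DUOXA2, the maturation factor of a dual oxidase (0.60), and ANKRD24 (0.59) came next among the paired genes. They ranked only 614 to 903 among all genes. DSG1 had weaker likenesses, with PRSS53 (0.48), DUOXA2 (0.45), Metazoa_SRP (0.44), MT-ATP8 (0.32) and the chaperone gene DNAJA1 (0.26). Their ranks ran from 136 to 1231, so many genes without a symbol were more like DSG1. MT-ATP8 itself ran from 0.677 to 2065 CPM within AH, and 1 CS cow held 98.8% of its summed CS CPM. Averaged over the 4 members, AHSG (0.53), TPRG1 (0.53), VNN2 (0.51), LPO (0.50), ARG1 (0.49) and PRSS53 (0.48) led, followed by ANKRD24 (0.42), NOV (0.42), IGFBP3 (0.40) and DUOXA2 (0.39).

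The genes at the other end differed between members. DSG1 had its lowest r with UGT2B17, a UDP-glucuronosyltransferase, at -0.73 (rho -0.76), which ranked 13283 and last among all genes tested. PADI1, by contrast, had an r of 0.57 (rho 0.44) with UGT2B17. The lowest paired gene for PADI1 was S100A8 at -0.70 (rho -0.74), for SLURP1 the complement gene CFB at -0.48 and for CRISP3 DNAJA1 at -0.56.

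Of the lists of related genes, 7 were paired and tested. In AH against CS, and again in AH against RS, 0 were called higher and 1, S100A9, was called lower, and in RS against CS 0 were called. The median log2 ratio of the 7 was -1.07 for AH to CS, -1.23 for AH to RS and 0.06 for RS to CS, against 0.01, 0.02 and -0.03 over all genes tested. The study chose these genes on the same samples, so the medians are not independent evidence of a direction. The only paired gene of the 39 late differentiation genes was TGM3, the transglutaminase that cross-links the cornified envelope. Its mean was 478 ± 282 CPM in AH, with 1121 ± 669 for CS and 1152 ± 543 for RS (SD, n = 6), with an adjusted p of 1.00 by limma in each comparison with AH. TGM3 thus had its lowest mean in the diet where the 4 members had their highest, while between cows of 1 diet its r was 0.66 with CRISP3, 0.49 with PADI1, 0.25 with SLURP1 and -0.0035 with DSG1. The label of a squamous differentiation group therefore could not be checked beyond the known roles of the members. TGM3, the one gene of the late differentiation list that could be read, lay the other way. Off that list, PI3 also had a lower mean in AH, at 64.2 CPM against 391 in CS and 468 in RS. CS 5 held 46.6% of the summed CS CPM of PI3. ARG1 had a higher mean in AH, at 147 CPM against 74.4 in CS and 66.7 in RS. AH 6 held 40.6% of the summed AH CPM of ARG1. Neither PI3 nor ARG1 passed the limits by limma in a comparison with AH, and the study had picked both genes from these samples. Their part in squamous differentiation here was not tested.

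The remaining paired genes of the lists gave no shared direction. KRT36, a hair-type keratin, had means of 1.99 CPM in AH, with 16.2 for CS and 6.35 for RS, whereas its medians were 1.92, 1.73 and 0.596 in that order. The CS mean of KRT36 rested on CS 5, at 83.4 CPM. CRISPLD2, a CAP superfamily relative of CRISP3, had means of 100.2 CPM in AH, with 71.7 for CS and 156 for RS. DPT, a fibroblast marker, had means of 49.7 CPM in AH, with 37.6 for CS and 74.3 for RS, and medians of 34.8, 25.9 and 29.2. Its r with the members lay between -0.13 and 0.13.

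In the gene order of the RefSeq assembly ARS-UCD2.0, a later build than the one used for counting, each member lies among relatives. SLURP1 is beside LYPD2, LYNX1 and LY6D, DSG1 is between DSG4 and DSC1, PADI1 is between PADI3 and PADI2, and CRISP3 is next to CRISP2. The identifiers of these neighbours could not be paired, so whether they vary with the members, or share reads with them, was not tested.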

How the data were processed

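The deposited table holds CPM per gene for 18 cows. Per the submitters' processing notes, the authors used TopHat2, HTSeq, edgeR and the UMD3.1 bovine assembly; versions are not given in the sources used here. CPM steps gave whole reads for 100% of values (tolerance 0.02 reads), and totals of 16099131 to 32252177 reads per cow set the precision; 3 reads, the limit that a count of 0 allows, are 0.0930 to 0.186 CPM. Labels name no lane, date or batch. Separate cows are the replicates. Groups were read from the titles, which write AL for AH.

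The main test was limma 3.58.1 (R 4.3.3, with trend) on log2(CPM + 0.5) of all 18 cows, and covered the 13284 of 24616 genes that exceeded 1 CPM in 3 or more cows on a diet. Calls needed a Benjamini-Hochberg adjusted p under 0.05 over all genes tested and a ratio of mean CPM over 2. The script was tested on simulated data with 200 changed genes. Single genes had an exact permutation test over all 924 relabellings. Poisson intervals and Spearman's rho used scipy 1.17.1. Alternatives were another pseudocount, filter, TMM scaling, 12 cows, a replicate block, edgeR 4.0.16, DESeq2 1.42.0 and leaving out each cow. The members, gene lists and tests were chosen with earlier results of these data known. Symbols for 73 identifiers came from the study's supplementary list. Genes named were the members, the 5 paired genes with the highest r for each member and 10 over all members, and up to 3 per list by lowest p and by highest CPM. The lowest paired gene for each member was named after its value was seen.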

Additional observations from a re-analysis of the deposited data

Results flagged for a closer look

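Of 33 groups of 6 cows tested for a cow set apart from the rest, 5 held one. Chance gives about 1 in 20 groups if values are normally distributed. CPM need not be, and the groups share cows, so the number due to chance is not known. None was a value of SLURP1, DSG1, PADI1 or CRISP3. KRT36 was 83.4 CPM in CS 5, where the next CS cow had 9.45. CRISPLD2 was 246 CPM in AH 3, where the next had 98.3. S100A9 was 161 CPM in AH 4, where the nearest AH cow had 436. DPT was 156.5 CPM in AH 3, with the next at 52.4, and 266 CPM in RS 3, with the next at 85.9.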

How the results depend on the processing

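Of 331 values under other settings, 316 were counted as the same. Counts of calls had to stay unchanged, and fitted differences of RS from CS had to keep their direction and side of the threshold. Log2 ratios of means had to move by less than the SD within diets. The mean r had to move by less than its leave-one-out standard error, 0.19. These rules are loose, since DSG1 without AH 6, at 0.77 in place of 1.48 for AH to CS, counted as the same. Called genes numbered 0 with only the 12 cows compared and 5 by DESeq2 for AH against CS, in place of 1. For AH against RS they numbered 2 with the replicate block and 8 by DESeq2, in place of 1, and for RS against CS 1 with no filter, in place of 0. Leaving out single cows gave 1 to 2, 1 to 5 and 0 to 6 calls, with the highest counts of AH against RS and RS against CS without RS 6. The cause was not tested. The log2 ratio of AH to CS for DSG1 was 0.035 with medians in place of means. The fitted difference of CRISP3 between RS and CS turned to 0.13 without RS 5, the cow with 0.787 CPM. Leave-one-out ranges for RS against CS were -0.66 to -0.09 for SLURP1, -0.60 to -0.02 for DSG1, -1.76 to -0.99 for PADI1 and -1.32 to 0.13 for CRISP3, and over all settings run the lowest adjusted p of any member was 1.00. The filter of CPM over 1 in all cows left out PADI1 and CRISP3. The mean r over the 6 pairs was 0.48 with CPM not on the log scale, against 0.23, and 0.07 to 0.31 with single cows left out. The study's methods name a randomized block design for other measurements, and the sources used here do not say whether a replicate number marks a block. Same-numbered cows had an r of deviations over 0.1 in 5 of 6 pairs for AH and CS, 2 of 6 for AH and RS and 5 of 6 for RS and CS (from -0.48 to 0.71), and 3, 4 and 2 of the 12 cows correlated best with their own number. Since not every pair was over 0.1, the numbers were not used as a pairing in the main test. That rule cannot settle whether the numbers mark blocks. With the replicate block the unadjusted p of PADI1 between RS and CS was 0.0209 in place of 0.0762, and no gene was called. Depth limits only the lowest PADI1 and CRISP3 values, which rest on 11 to 39 reads.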
